A study of Mus musculus with 16 samples.

Results

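Genes for the subunits of ATP-dependent nucleosome remodellers were described across nuclear RNA of mouse embryonic stem cells (ESCs) with and without Polycomb repressive complexes. Members were taken by name, as every gene symbol that starts with *Smarc*, *Arid*, *Ino80* or *Actl6*, together with *Chd1* to *Chd9*. The rule found 39 of 19338 gene symbols, of which 38 are protein-coding genes and the remaining member, *Ino80dos*, is a noncoding RNA gene. The 39 members had 41 entries in the tables, and where a symbol had 2 entries the one with the higher mean was kept.

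The cells fell into 4 groups of 4 libraries each. PRC1-null cells carried *Ring1*-/-;*Rnf2* fl/fl and had received 800 nM 4-hydroxytamoxifen for 72 h, which removes RNF2 (RING1B) and leaves no catalytic RING protein of PRC1. PRC2-null cells carried *Eed*-/- on the *Ring1*-/-;*Rnf2* fl/fl background and received no tamoxifen, and PRC1/2-null cells were the same line after tamoxifen. They were compared by the study with untreated *Ring1*-/-;*Rnf2* fl/fl cells, so that every group, the controls included, lacked RING1. The *Eed*-/- line was 1 clone made by CRISPR-Cas9. The study followed nucleosome occupancy and spacing at promoters after loss of these complexes, and the genes described here encode proteins that slide, evict or exchange nucleosomes.

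The measurement was the mean normalized count of a gene, which is the authors' mean over all 16 libraries after scaling between libraries. It was the same for all 20633 entries in the 3 deposited tables. A mean over the 4 groups cannot be split into groups, and it carries no error, so the values below describe the members in these cells as a whole, without a comparison of null cells with untreated cells and without a test. Values of single libraries were not analysed here, and the depth per library is unknown. Since a long gene gathers more reads than a short one, the level of a gene is given per kb of exons of the transcript and per kb of gene span with introns, and genes were ordered on these scales. Mean normalized counts without division by length show how many reads a value rests on. Nuclear RNA holds unspliced transcripts, and an order of genes is stated where both scales gave it. Without a replicate error, genes whose ratios lie near 1 cannot be ordered. All levels are of nuclear RNA, and neither protein nor the make-up of the complexes was measured.

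Chromatin remodellers use the energy of ATP hydrolysis to move DNA along the histone octamer. They are grouped by their ATPase into the SWI/SNF (BAF), ISWI, CHD and INO80 families. BAF complexes open chromatin at enhancers and promoters, ISWI complexes space nucleosomes into regular arrays, CHD4 works within the histone deacetylase complex NuRD, and INO80 slides nucleosomes and acts on those that hold H2A.Z. In ESCs, BAF is known to be built around BRG1 (*Smarca4*), with BAF155 (*Smarcc1*), BAF53a (*Actl6a*) and ARID1A, and *Chd1*, *Chd4* and *Ino80* are each known to matter for self-renewal or for the exit from it. The name rule is broader than this biology. The *Arid3*, *Arid4* and *Arid5* genes share only the AT-rich interaction domain that binds DNA, and they are not subunits of a remodeller.

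Levels among the members ran down to *Actl6b* on both length scales, and *Chd4* had the highest value on both. *Chd4* had 1397 mean normalized counts per kb of exons and 270 per kb of gene span, with *Smarcad1* (1317) and *Smarcc1* (1277) close to it on exons, and *Actl6b* had 1.97 per kb of exons and 0.195 per kb of gene span. *Actl6a* and *Actl6b* encode BAF53a and its neuronal counterpart BAF53b, and they were the paralogues farthest apart. Their promoter windows of 300 bases are printed below for that reason. The window of the noncoding *Ino80dos* is printed with them. It also holds the start of *Ino80d*, whose kept transcript starts 204 bases away on the opposite strand. No window of *Ino80d* itself was available here. The windows run from 250 bases before to 50 bases after the annotated start, from RefSeq on GRCm38.p6, 5′ to 3′ on the plus strand. Capitals mark each CG dinucleotide (CpG), which reads the same on both strands.
Actl6a, chr3:32708296-32708595: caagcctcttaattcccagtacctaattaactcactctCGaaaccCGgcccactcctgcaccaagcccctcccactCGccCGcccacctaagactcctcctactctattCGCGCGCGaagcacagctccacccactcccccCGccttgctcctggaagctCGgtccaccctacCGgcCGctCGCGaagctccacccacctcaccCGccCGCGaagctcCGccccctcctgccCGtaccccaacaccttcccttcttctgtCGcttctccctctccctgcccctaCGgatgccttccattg
Actl6b, chr5:137553296-137553595: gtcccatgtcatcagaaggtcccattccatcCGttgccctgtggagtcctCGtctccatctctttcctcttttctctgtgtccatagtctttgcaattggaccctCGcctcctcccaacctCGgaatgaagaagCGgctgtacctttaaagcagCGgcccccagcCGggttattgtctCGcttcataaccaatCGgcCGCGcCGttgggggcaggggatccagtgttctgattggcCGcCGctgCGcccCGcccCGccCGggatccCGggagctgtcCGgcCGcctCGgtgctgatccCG
Ino80d and Ino80dos, chr1:63114221-63114520: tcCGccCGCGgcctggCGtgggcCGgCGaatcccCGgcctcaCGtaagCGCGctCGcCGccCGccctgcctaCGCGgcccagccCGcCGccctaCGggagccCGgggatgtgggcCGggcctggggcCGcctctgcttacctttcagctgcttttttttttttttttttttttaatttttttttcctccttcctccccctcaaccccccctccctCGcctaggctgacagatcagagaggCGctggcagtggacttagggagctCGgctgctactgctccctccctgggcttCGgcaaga

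The *Actl6a* window held 21 CpG and the *Actl6b* window 23, so that these promoters were alike in CpG number although the levels of the genes were 394-fold apart per kb of exons. The *Ino80dos* window, placed by the start of that gene and holding the start of *Ino80d* as well, held 25. A CpG count describes the letters of the window and says nothing of methylation or of a factor at the site.

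**Figure D1:**
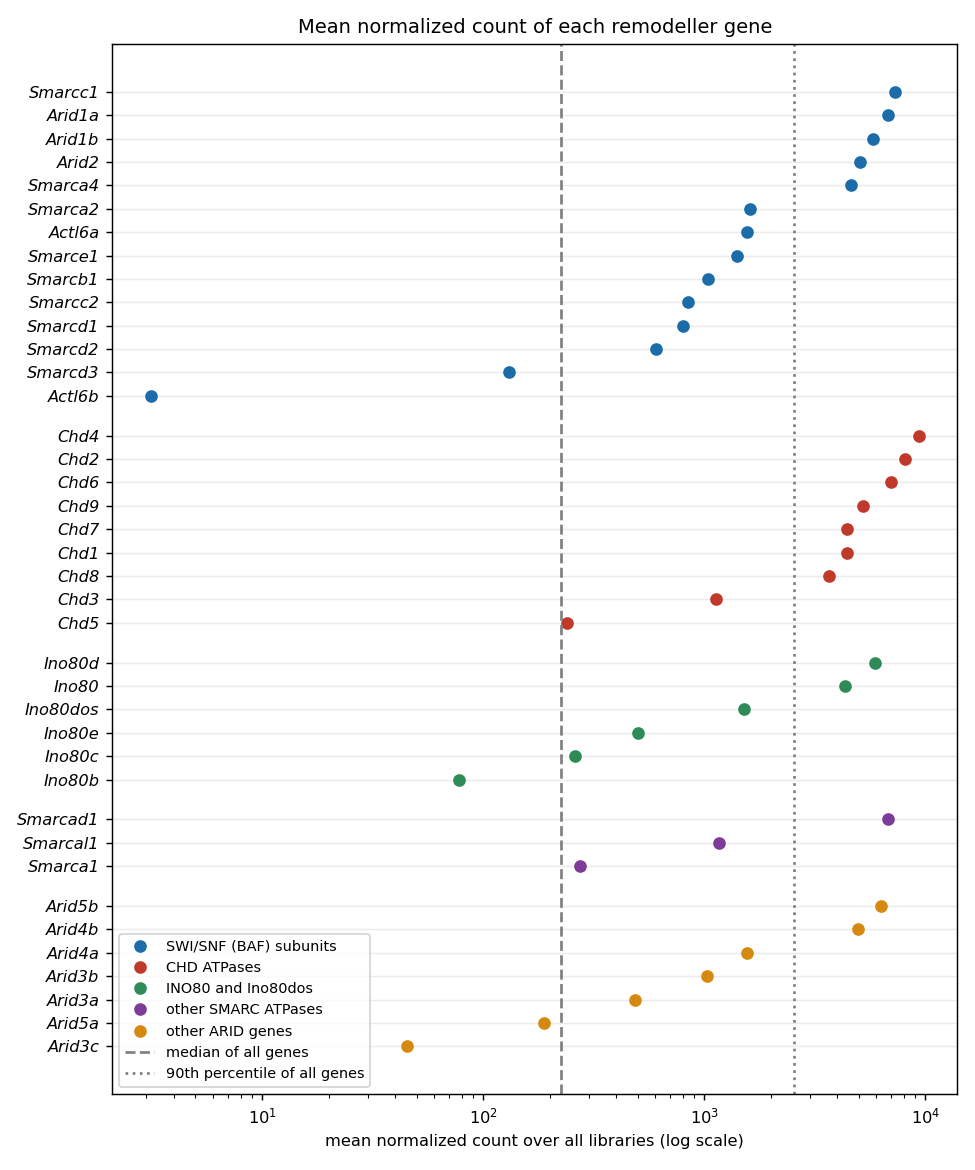
Mean normalized count of each of the 39 members over all 16 libraries (x axis, log scale, authors' mean with no length correction and no error), grouped by role and ordered by level within a role. The dashed line is the median of all genes (224), and 34 members lie above the median; *Actl6b* (3.13) lies far to the left of every other member.

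Most members rested on many reads, in counts that are not divided by length. A mean normalized count of 1000 or more was found for 26 of 39 members (66.7%), against 23.8% of the 18452 genes with a mean above 0, and a mean of at least 100 for 36 of 39 (92.3%), against 60.4% of all genes. The 3 members under 100 were *Ino80b* with 78.0, *Arid3c* with 45.3 and *Actl6b* with 3.13. The members took 0.628% of the summed means and made up 0.211% of the genes. They are also long genes, with a median of 5.17 kb of exons and 49.9 kb of span, against 2.60 kb and 19.5 kb for all genes.

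After division by length the median percentile of the members was lower, by little on exons and by more on gene span. The median percentile of the members was 83.3 by mean normalized count, 81.0 per kb of exons and 74.6 per kb of gene span. Per kb of exons the members had a median of 433 and all genes 87.6, and per kb of gene span 36.5 and 11.3. The members above the median of all genes numbered 32 per kb of exons and 34 per kb of gene span, and 31 on both scales. By mean normalized count 34 lay above it. Neither length scale was free of gene span. Over genes with a mean of at least 10, the rank correlation with span was 0.235 per kb of exons and -0.310 per kb of gene span. Over the coding members it was 0.560 and 0.0496. Among the genes with a mean of at least 10, long genes thus tended to stand higher on the exonic scale and lower on the span scale. Among the coding members, long genes stood higher on the exonic scale, and the span scale went little with span.

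Among the genes of the catalytic subunits of BAF, *Smarca4* had the higher level. *Smarca4* (BRG1, NM_001174078, chromosome 9 from 21616169 to 21704230, 34 exons) had a mean normalized count of 4619, equal to 724 per kb of exons and 52.4 per kb of gene span. *Smarca2* (BRM, the alternative ATPase, NM_011416, chromosome 19 from 26605052 to 26778321, 33 exons) had 1613, equal to 272 per kb of exons and 9.31 per kb of gene span. *Smarca4* was thus 2.66-fold higher per kb of exons and 5.63-fold higher per kb of gene span, and it took 72.7% of the summed level of the pair per kb of exons. *Smarca2* has a second entry, NM_026003, a short transcript of 9 exons at the 3′ end of the same gene. Its mean normalized count was 429, or 26.6% of that of the long entry. The short entry had 219 per kb of exons and 14.3 per kb of gene span. On span it stood above the long entry, so the span ratio of *Smarca4* to *Smarca2* depended on the entry. *Smarca4* was higher than either entry on both scales. Reads of the shared exons cannot be told apart between these entries, and how the authors counted them is not given in the sources used here.

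The pair of genes for the BAF scaffold was led by *Smarcc1* (BAF155), and by more on exons than on span. *Smarcc1* had a mean normalized count of 7298, with 1277 per kb of exons and 67.5 per kb of gene span. *Smarcc2* (BAF170) had 841, with 184 per kb of exons and 27.3 per kb of gene span. The ratio of *Smarcc1* to *Smarcc2* was 6.93 per kb of exons and 2.47 per kb of gene span.

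Among the BAF60 genes, *Smarcd1* and *Smarcd2* stood close together. *Smarcd1* (BAF60a) had 242 per kb of exons and 67.6 per kb of gene span, and *Smarcd2* (BAF60b) had 221 and 62.1 on the same scales. Their ratios of 1.10 and 1.09 are too near 1 to order them without an error. *Smarcd3* (BAF60c, known from heart and neural progenitors) was lower, with 75.7 per kb of exons and 14.0 per kb of gene span, so that *Smarcd1* exceeded it 3.20-fold and 4.83-fold. *Smarcd2* also has 2 entries that overlap in the genome, with mean normalized counts of 608 and 479. The entry with 479, which was not kept, had 188 per kb of exons and 104 per kb of gene span. On span it stood above *Smarcd1*, so the order of these genes also depended on the entry.

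Of the RNA of the 2 actin-like genes, almost all was that of *Actl6a*. *Actl6a* (NM_019673, chromosome 3 from 32708507 to 32726973) had a mean normalized count of 1557, with 775 per kb of exons and 84.3 per kb of gene span, which put it in the top 10% of all genes on both length scales. *Actl6b* (NM_031404, chromosome 5 from 137553520 to 137569582) had a mean normalized count of 3.13 and was the only member in the lowest 25% of all genes on the count scale and on both length scales. *Actl6a* took 99.7% of the summed level of the pair per kb of exons and 99.8% per kb of gene span, a ratio of 394 and 432.

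Among the genes of the large ARID subunits that set the type of BAF complex, *Arid1a* led. How far *Arid1b* lay below it depended on the scale. *Arid1a* (BAF250a) had 832 mean normalized counts per kb of exons and 91.1 per kb of gene span, and *Arid2* (BAF200, of the PBAF form) had 594 and 43.0. *Arid1b* (BAF250b) had 512 per kb of exons but only 16.4 per kb of gene span, over a gene of 353 kb, which put it at percentile 83.8 of all genes on exons and 56.6 on span. The ratio of *Arid1a* to *Arid1b* was therefore 1.63 per kb of exons and 5.55 per kb of gene span. *Arid2* exceeded *Arid1b* by only 1.16-fold on exons and by 2.62-fold on span, so without an error their order is not firm. By mean normalized count alone, *Arid1b* (5795) would have passed *Arid2* (5051).

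The remaining BAF members, *Smarcb1* and *Smarce1*, encode core subunits without a paralogue among the members. *Smarcb1* (SNF5, lost in rhabdoid tumours) had 638 mean normalized counts per kb of exons and 41.7 per kb of gene span. *Smarce1* (BAF57, which carries a high mobility group domain) had 483 per kb of exons and 64.1 per kb of gene span. Their order turned between the scales. All 14 BAF genes of the rule were found, 13 with a mean normalized count that reached 100 and 9 with 1000 or more.

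**Figure D2:**
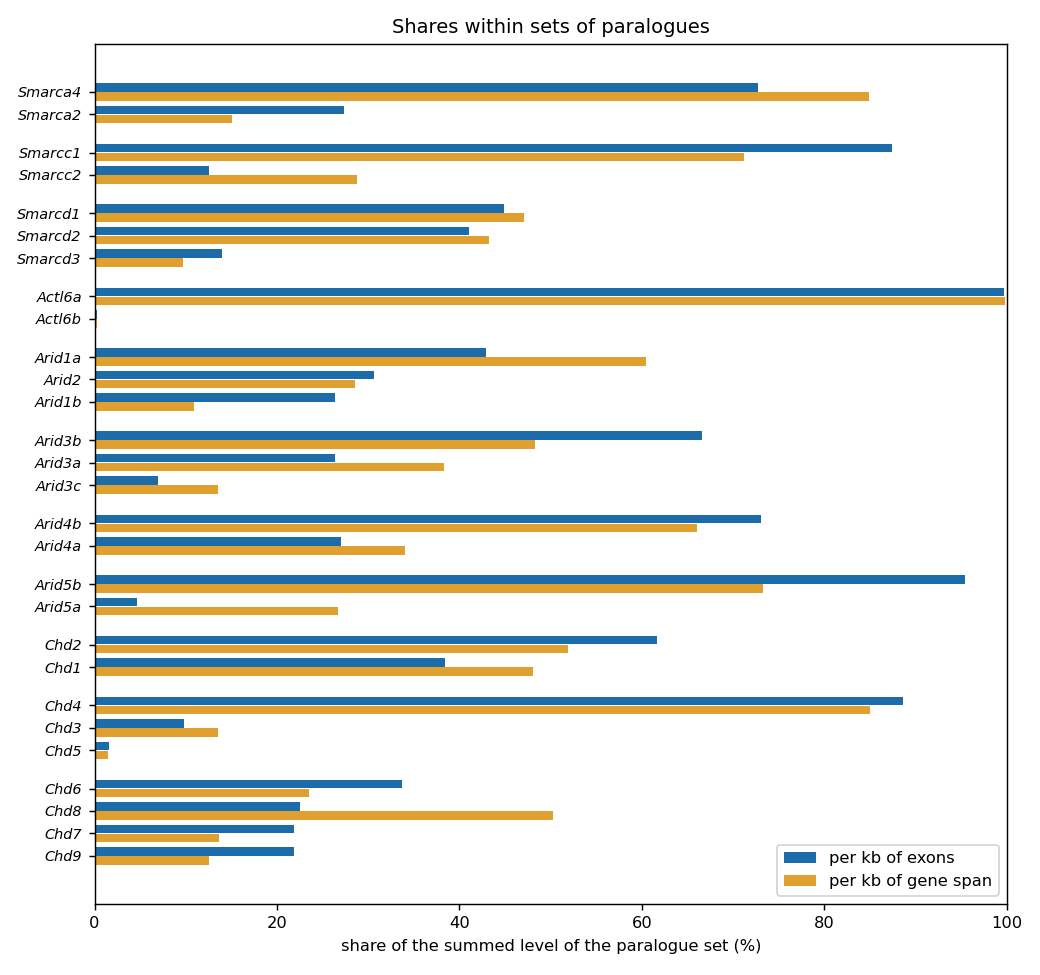
Share of each gene in the summed level of its set of paralogues (x axis, percent), per kb of exons (blue) and per kb of gene span (orange), for the 11 sets with at least 2 members. On both scales *Actl6a* (99.7% and 99.8%) takes nearly the whole of its set and *Chd4* (88.6% and 85.0%) most of its set. *Chd8* takes 22.5% on exons and 50.3% on span.

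The 9 CHD genes had a median of 445 per kb of exons and 43.3 per kb of gene span, against 433 and 36.5 over all members. *Chd4* (Mi-2 beta, the main ATPase of NuRD in ESCs, NM_145979, chromosome 6 from 125095981 to 125130591, 39 exons) had a mean normalized count of 9359. *Chd3* (Mi-2 alpha) had 155 per kb of exons and 43.1 per kb of gene span, and *Chd5*, known from neurons and testis, had 25.2 and 4.63. *Chd4* exceeded *Chd3* 9.01-fold per kb of exons and 6.28-fold per kb of gene span, and *Chd5* 55.6-fold and 58.4-fold. *Chd5* was below the median of all genes on both length scales.

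*Chd2* and *Chd1*, which bind at transcribed genes, were nearer each other. *Chd2* had a mean normalized count of 8118, with 894 per kb of exons and 70.5 per kb of gene span. *Chd1* (a reader of H3K4me3) had 4419, with 558 per kb of exons and 65.3 per kb of gene span. The ratio of *Chd2* to *Chd1* was 1.60 on exons but 1.08 on span, and without an error these values do not order them firmly.

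The remaining CHD genes, *Chd6* to *Chd9*, had no common leader. Per kb of exons *Chd6* was highest with 668, and *Chd8* (445), *Chd9* (433) and *Chd7* (433) lay within a ratio of 1.03. Per kb of gene span *Chd8*, which lies within 39.4 kb, led with 92.6, and *Chd6* had 43.3, *Chd7* 25.1 and *Chd9* 23.0. *Chd8*, which binds beta-catenin, is overlapped over 39.83% of its span by an antisense transcript, *Gm26590*. *Chd7*, the gene of CHARGE syndrome in humans, was below *Chd6* on both scales, by 1.54-fold on exons and 1.73-fold on span.

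ISWI was represented within the rule by *Smarca1* alone. *Smarca1* (SNF2L, the ATPase of NURF, on chromosome X) had a mean normalized count of 274, with 68.6 per kb of exons and 3.29 per kb of gene span, below the median of all genes on both length scales. *Smarca5*, which encodes the ISWI ATPase SNF2H and whose name the rule would also take, was looked for by symbol but matched to no entry and was not analysed here. The members are therefore incomplete for ISWI, and the share of each ISWI ATPase is not given.

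*Smarcad1* was among the highest members on both length scales, close to *Smarcc1* on exons and to *Chd8* and *Arid1a* on span. *Smarcad1*, whose product helps to restore silent chromatin behind the replication fork, had a mean normalized count of 6804, with 1317 per kb of exons and 92.6 per kb of gene span (NM_007958, chromosome 6 from 65042609 to 65116061). *Smarcal1*, an annealing helicase of stalled forks, had 1162, with 380 per kb of exons and 23.3 per kb of gene span. Of the 16 ATPase genes considered, 15 were found, all with mean normalized counts of 100 or more and 13 with 1000 or more.

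The INO80 genes covered a wide range. *Ino80*, the ATPase, had a mean normalized count of 4342, with 683 per kb of exons and 41.5 per kb of gene span. *Ino80d* had 440 per kb of exons and 89.0 per kb of gene span, over a transcript with 13.4 kb of exons. The small subunit genes were lower on exons, at 257 for *Ino80e*, 105 for *Ino80c* and 75.1 for *Ino80b*. Per kb of gene span they had 50.5, 15.2 and 24.4 in the same order of genes, so that *Ino80e* was highest of these on both scales and the other two changed places.

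*Ino80dos* stood out as a noncoding neighbour with a level like that of the coding members. It lies on the plus strand of chromosome 1 from 63114471 to 63158290, and *Ino80d* on the minus strand from 63047801 to 63114267. Both starts fall within the printed window. These coordinates are those of the kept transcripts. The annotated gene *Ino80dos* overlaps 1190 bases of *Ino80d*, or 1.79% of its span. *Ino80d* had a mean normalized count of 5913 and *Ino80dos* 1506. Per kb of gene span *Ino80d* was 2.59-fold higher, with 89.0 against 34.4. Per kb of exons the order turned, with 956 for *Ino80dos* and 440 for *Ino80d*, a ratio of 2.17. *Ino80dos* is overlapped over 33.53% of its span by *Ndufs1*, a gene of mitochondrial complex I on the other strand with a mean normalized count of 3003.

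In each of the 3 ARID sets outside BAF, 1 paralogue led on both length scales. *Arid5b*, whose product recruits the histone demethylase PHF2, had 834 mean normalized counts per kb of exons and 34.0 per kb of gene span, and *Arid5a*, which in immune cells binds and stabilizes *Il6* mRNA, had 40.7 and 12.4. *Arid4b*, of the SIN3 histone deacetylase complex, had 844 and 36.5, and its partner *Arid4a* 312 and 18.9, ratios of 2.71 and 1.94. *Arid3b* had 247 and 22.2, *Arid3a* 98.1 and 17.6, and *Arid3c* 25.9 and 6.20. *Arid3b* therefore led *Arid3a* by 2.52-fold per kb of exons but by 1.26-fold per kb of gene span.

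Of the *Arid3* genes, 2 lie opposite other genes. The whole of *Arid3c* lies opposite *Il11ra1*, and 94.79% of *Arid3b* lies opposite the antisense transcript *Gm17231*. Neither of these opposite genes was matched to an entry, so their levels are unknown. In all, 14 members overlapped a gene on the other strand, and 10 of them over at least 5% of their span, among them *Ino80b* (58.65%), *Smarcd1* (27.94%), *Smarcd3* (20.6%), *Ino80e* (11.39%) and *Actl6a* (8.54%). The share of all genes with such an overlap was not computed, so these counts do not set the members apart. The library kit kept the strand, but the strand setting of the counts is not given in the sources used here, so the part of these overlaps in the levels was not tested.

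**Figure D3:**
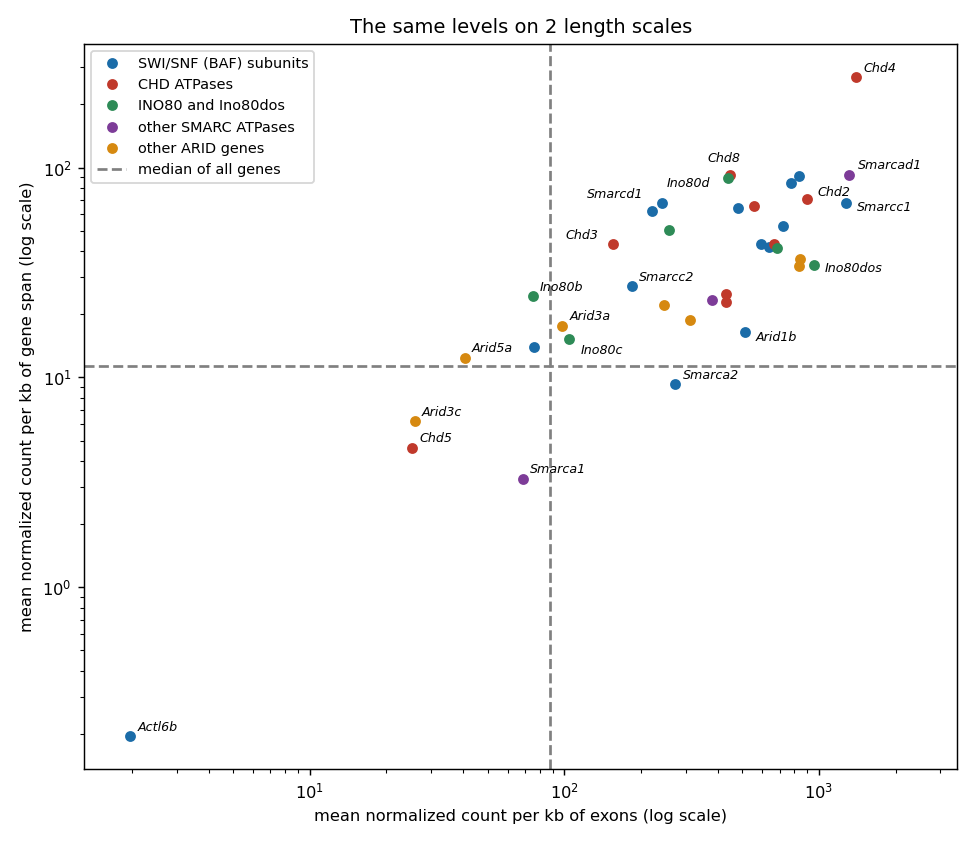
Level of each of the 39 members per kb of exons (x axis) and per kb of gene span (y axis), as mean normalized counts over 16 libraries on log scales, coloured by role, with names for the genes away from the densest area. Dashed lines are the medians of all genes (87.6 and 11.3); *Actl6b*, *Arid3c*, *Chd5* and *Smarca1* are below both, and *Chd4* is highest on both.

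Set side by side, the length scales gave the same order for 22 of 24 pairs of paralogues. The pairs in another order were *Chd6* and *Chd8*, with a ratio of 1.50 on exons and 0.468 on span, and *Chd9* and *Chd7*, with 1.00 and 0.917. In 5 of the 22 pairs the ratio was below 1.2 on at least 1 of the scales, a limit chosen after the values were seen, so their order is not firm without an error. The gene with the highest value was the same in 10 of 11 sets, and in 2 of the 10 (*Smarcd1* with *Smarcd2*, and *Chd2* with *Chd1*) its ratio to the next gene was likewise below 1.2. In the top 10% of all genes on both scales stood *Actl6a*, *Arid1a*, *Chd4* and *Smarcad1*, 4 members in all. At or below the median of all genes on both scales stood *Actl6b*, *Arid3c*, *Chd5* and *Smarca1*, also 4. The shares of all genes that meet these limits on both scales were not computed.

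The mean normalized count of the coding members went with their length. Over 38 coding members the rank correlation (Spearman) of the mean normalized count was 0.721 with exonic length and 0.748 with gene span, and over 14453 genes with a mean of at least 10 it was 0.353 and 0.430. Genes are not independent replicates, and all of them share the same libraries, so these are descriptions. Between the exonic and the span scale the rank correlation was 0.727 over the coding members and 0.759 over all genes.

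Other remodeller genes, which the name rule does not take, were written as a list of 65, of which 63 were found. The list holds 46 further subunits of BAF, ISWI, NuRD and INO80 complexes, 9 genes of the SRCAP and TIP60 complexes, which have no ATPase among the members, and 10 other SNF2-type ATPases. Of the 46 subunits 44 were found, 41 with mean normalized counts of 100 or more and 25 with 1000 or more, and their medians were 411 per kb of exons and 38.3 per kb of gene span, beside the members' 433 and 36.5. Per kb of exons, the partners of NuRD had the highest median (736, 9 of 9 found), followed by the partners of ISWI (549, 11 of 11), other SNF2-type ATPases (341, 10 of 10), INO80 (303, 8 of 9), the SRCAP and TIP60 complexes (250, 9 of 9) and BAF and PBAF (122, 16 of 17). On gene span the order of these medians was another, with ISWI (58.7) and NuRD (56.8) highest and BAF and PBAF (18.3) lowest.

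Each of these lists spanned a wide range, given here per kb of exons. Among the ISWI partners, *Rbbp7*, a histone chaperone that PRC2 and NuRD also hold, had 2344 and *Baz1b* 750, and the histone-fold genes *Pole3* and *Chrac1* had 78.7 and 111. Among the NuRD partners, *Gatad2a* had 1574 and *Mta3* 1151, and *Mbd3* and *Mta2* had 275 and 409. Of the other SNF2-type ATPases, *Atrx*, which works with DAXX to deposit H3.3, had 2481 and *Hells*, needed for DNA methylation of repeats, 1317, and the transcription-coupled factors *Ercc6* and *Ttf2* had 238 and 289.

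In BAF and PBAF, *Actb*, which encodes beta-actin, had 7895 per kb of exons and *Ss18* 949, and *Dpf1*, known from neurons, had 36.1 and *Bcl7c* 37.7. In INO80, the deubiquitinase gene *Uchl5* had 1188 and the AAA ATPase gene *Ruvbl2* 687, with *Actr5* at 146 and *Tfpt* at 199. In SRCAP and TIP60, the ATPase genes *Ep400* and *Srcap* had 625 and 537, and *Znhit1* and the acetyltransferase gene *Kat5* had 94.4 and 179.

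**Figure D4:**
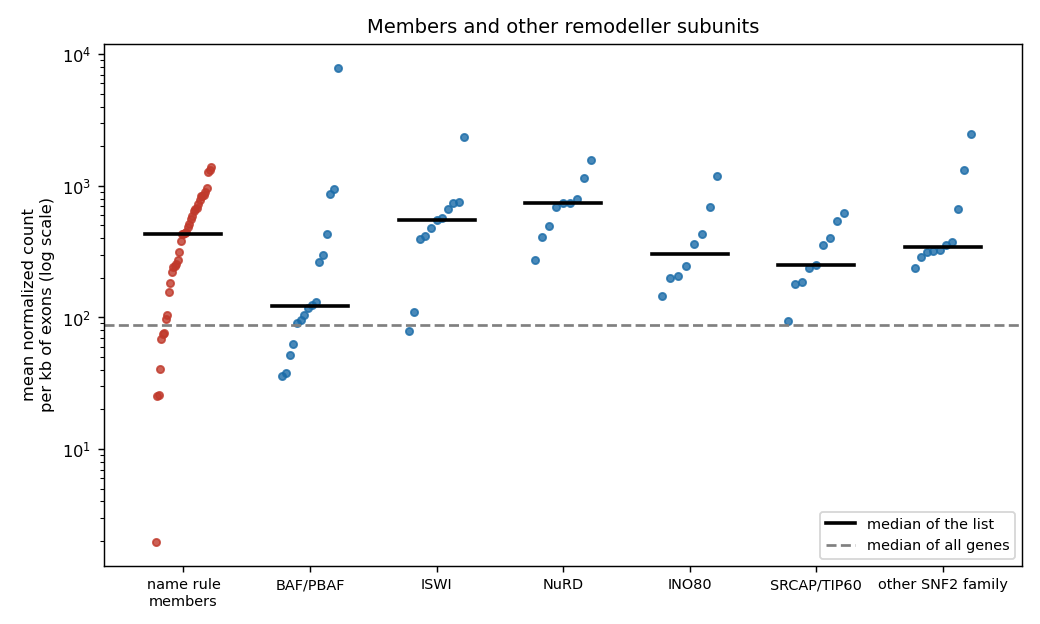
Mean normalized count per kb of exons (y axis, log scale) of the 39 members (red) and of 63 other remodeller genes by complex (blue), 1 point per gene, with the median of each list as a bar and the median of all genes (87.6) as a dashed line. The NuRD partners have the highest median (736) and the BAF and PBAF genes outside the rule the lowest (122).

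Promoter windows within 500 bases of the entry's start were available for 27 of 39 members. They held a median of 25.0 CpG, from 7 in *Arid5b* to 48 in *Smarcc2*, against a median of 17.0 over the 13893 genes with a mean above 0 and such a window. At least 15 CpG were found in 23 of 27 members and in 57.8% of those genes, and 94.2% of all annotated windows held at least 1. The *Chd5* window held 32 CpG and that of *Smarca4* 33, so a rich window was found in members of low and of high level. The relation of CpG number to level over the 27 windows was not tested.

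The label of the cells was checked against marker genes. Of 8 ESC markers 7 were found, all with mean normalized counts of 1000 or more, from 1384 for *Pou5f1* to 14465 for *Tfcp2l1*. Of 7 fibroblast markers 1 reached 100, with a range from 0.283 for *Lum* to 128 for *Thy1*. Primitive endoderm markers ranged from 161 for *Foxa2* to 4716 for *Gata4* (6 of 6 at 100 or more). With 1398 per kb of exons and 102 per kb of gene span, *Gata4* lay within the range of the ESC markers. These ran from 698 to 1561 on exons and from 35.4 to 899 on span. Trophoblast markers ranged from 32.2 to 549 (4 of 6) and neuronal markers from 40.3 to 1474 (5 of 6), and none of the markers found was at 0. Since the mean pools 3 null groups with untreated cells, markers of other cell types cannot be assigned to a group here, and their part in the members' levels was not tested. In bulk samples, fewer cells of a type and less RNA per cell cannot be told apart.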

How the data were processed

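Nuclear RNA was depleted of rRNA and made into strand-keeping, paired-end libraries for 16 ESC samples in 4 groups. Bowtie 2 was used by the authors to take out rRNA reads, STAR to align to mm10 and SAMtools to remove PCR duplicates, and they ran DESeq2 on a custom set of nonredundant genes. Versions, the counter and the strand setting are not given in the sources used here.

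The deposited signal is a mean normalized count per entry, averaged by the authors over 16 libraries after they had scaled them. The other 6 columns of each of the 3 deposited tables, 18 in all, hold the fold changes, standard errors, statistics and p-values of the authors' own comparisons. They were not used by choice, so no comparison between groups is given. All 39 members and all lists were chosen with earlier results of these data known.

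Symbols came from RefSeq on GRCm38.p6 and GENCODE M21, for 20560 of 20633 entries. Lengths and coordinates (GRCm38, the same as mm10) came from GENCODE M21 for the transcript of each entry, and were found for all 39 members. Named genes were every member and, of other remodeller genes, the highest 2 and the lowest 2 of each complex per kb of exons. Windows of RefSeq promoters more than 500 bases from the start of the entry were left out. Alternatives were the sum of entries or the lowest entry of a symbol, other scales of length, and minimum means of 10 and 1000. The percentile and rank correlation functions were tested on simulated data, and the other steps were not. A planned comparison of the proteins of paralogues was not run. Values were computed with pandas 2.3.3, numpy 2.4.6 and scipy 1.17.1 in Python 3.11.15 and plotted in matplotlib 3.10.9.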

Additional observations from a re-analysis of the deposited data

How the results depend on the processing

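No paired analysis was possible because the mean over all libraries carries no replicate number. With the lowest entry of each symbol the median mean normalized count of the members was 1506, against 1557 with the highest entry and 1557 with the sum. The median percentile of the members was 83.3 by mean normalized count, 78.8 among genes with a mean of at least 10, 81.0 per kb of exons and 74.6 per kb of gene span, of which the length scales were chosen after the data were seen. At least 100 was reached by 36 members, at least 10 by 38 and at least 1000 by 26. Paralogue pairs kept their exonic order in 22 of 24 cases per kb of gene span, 5 of them with a ratio below 1.2 on a length scale, and in 21 without length. *Smarca2* had 2043 as a sum and 429 at its lowest entry, against 1613, and *Smarcd2* 1086 and 479, against 608. Without values per library, neither an error nor a left-out replicate could be given, and precision at low means such as that of *Actl6b* is unknown.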
